A study of Mus musculus with 33 samples.

Results

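The genes described here are 9 members of the circadian clock and its direct output: Dbp, Tef, Per1, Per2, Per3, Noct, Nr1d1, Nr1d2 and Clock. They were followed through mouse liver and liver tumours made by loss of the Hippo pathway genes Sav1 or Mst1 and Mst2. They were taken by name, with every probe annotated to them, which gave 19 probes of the 45281 that the array (Illumina MouseWG-6 v2.0) holds. All 9 were among the 14018 genes tested. RNA came from 33 samples, 1 array each, in 7 groups. Hepatocellular carcinomas were taken from mice with genotype Sav1 -/- (n = 11) or Mst1/2 -/- (n = 4). Non-tumour liver around such tumours gave 7 samples of genotype Sav1 -/- and 3 of Mst1/2 -/-. Normal livers came from mice labelled Sav1 flox (n = 3), Mst1/2 flox (n = 3) and wild-type (n = 2). The flox labels name an allele made for conditional deletion and no deletion, whereas all tumour and surrounding samples carry the -/- label. No driver of the deletion, age, sex, feeding state, hour of sampling or identity of the mouse is given in the labels. P-values therefore measure the spread between these samples, part of which may be technical, and a difference in sampling hour between groups cannot be told apart from a difference in genotype or tissue.

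The clock is a loop of transcription and repression that runs in nearly every cell. CLOCK and its partner BMAL1, encoded by Arntl, bind E-box elements and activate the Per genes, the REV-ERB genes Nr1d1 and Nr1d2, and the output factors Dbp and Tef. PER proteins shut off CLOCK and BMAL1, and the REV-ERB receptors repress Arntl, so in normal mouse liver the Arntl transcript peaks opposite to the Nr1d1 and Dbp transcripts. DBP and TEF carry the rhythm onward through D-box elements to genes of metabolism and detoxification. Liver is a tissue in which these transcripts swing widely over the day.

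Levels are log2 values of background-corrected, quantile-normalized signals, so a step of 1 is a doubling of signal, and a probe's own level says nothing about another probe. Median raw signals ran from 78.5 to 112 units per array, and the share of probes above an array's background was 35.1% to 52.3%. The Sav1 flox livers had the 3 lowest shares (37.4%, 39.0% and 35.1%), and the other arrays had 40.3% or more. Low detection thus moved with that group, and its part in the comparisons with Sav1 flox liver was not tested. Precision is limited by how many arrays a group has. Probes that were above background nowhere sorted the arrays into 3 sets. Set A held 9 arrays, namely all 3 Sav1 flox livers with surrounding livers and tumours 1 to 3 of the Sav1 line. Set C held 6 arrays (Sav1 surrounding livers 4 to 7, tumours 4 and 5), and set B held the 18 others. The Sav1 flox livers thus share a set with 3 tumours and 3 surrounding livers only. The probe for Sav1 stood at 9.31 ± 0.33 (SD, n = 3) in Sav1 flox liver and 9.05 ± 0.48 (n = 11) in Sav1 tumours. The probe for Stk4, which encodes MST1, stood at 9.69 ± 0.12 (n = 3) in Mst1/2 flox liver and 9.81 ± 0.17 (n = 4) in Mst1/2 tumours. The sources used here do not say whether these probes lie in the deleted part, so their levels are no check of the deletion. Xist, made from the inactive X of females, was above background on all 3 Mst1/2 flox arrays (10.91 ± 0.33) and the Y-linked Eif2s3y on none of them. Every array of the other groups had Eif2s3y above background, though in wild-type liver it stood only at 6.85 ± 0.20 (n = 2). These transcripts moved with the Mst1/2 flox group, and the part of sex in the results was not tested.

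Liver identity was plain in all groups: 8 of 8 hepatocyte markers were measured, and their summed level stayed between 16.82 and 17.44. Signals are summed before taking log2, so the brightest markers weigh most in such a sum. Of the 8 hepatocyte markers 1 fell in Sav1 tumours and 1 in Mst1/2 tumours against flox liver. In Sav1 tumours against surrounding liver 2 fell, and in these comparisons none rose. Of the macrophage list 7 of 8 markers were measured, and at least 6 of the 7 were above background on every array of every group. Their summed level was 11.89 to 12.73 in Sav1 flox liver, 13.78 to 15.55 in Sav1 surrounding liver and 13.10 to 15.59 in Sav1 tumours. It was 12.74 to 12.85 in Mst1/2 flox liver, 13.73 to 14.52 in Mst1/2 surrounding liver and 14.25 to 14.59 in Mst1/2 tumours. Biliary or progenitor markers, with 4 of 8 measured, ran from 10.25 to 10.31 in Sav1 flox liver, 10.37 to 14.58 in Sav1 tumours, 10.68 to 11.28 in Mst1/2 flox liver and 12.93 to 13.77 in Mst1/2 tumours. Of 4 lymphocyte markers measured 3 rose in Sav1 tumours and 3 in Sav1 surrounding liver against flox liver, with summed levels of 8.16 to 8.45 in flox liver, 9.04 to 10.56 in surrounding liver and 8.83 to 10.95 in tumours. Of 8 endothelial markers 3 fell in Sav1 tumours and 2 in Mst1/2 tumours against flox liver, and 5 in Sav1 tumours against surrounding liver. Of all genes tested 33.2%, 20.3% and 12.9% passed at an adjusted p below 0.05 in these comparisons (limma). In Sav1 surrounding against flox liver 10.6% did. The endothelial shares against flox liver thus lay near those of all genes. The summed level of the endothelial markers was 13.32 to 13.61 in Sav1 flox liver, 13.54 to 14.70 in Sav1 surrounding liver and 10.64 to 13.05 in Sav1 tumours. Some of these lists moved in comparisons with flox liver that also gave clock gene calls. Endothelial markers fell in Sav1 tumours against surrounding liver, where none of the 9 clock genes passed. No marker of any list passed in Sav1 against Mst1/2 surrounding liver, where 2 clock genes did. The part of these lists in the results was not tested. In bulk tissue fewer cells of a type and less RNA per cell cannot be told apart.

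Among the 9 clock genes, the comparisons with flox liver gave most of the calls. A call is an adjusted p below 0.05 in a limma fit over all genes. In Sav1 tumours against Sav1 flox liver, Dbp and Nr1d2 rose and Clock fell, which makes 3 of 9, where 33.2% of all genes tested were called. In Sav1 surrounding against Sav1 flox liver, Dbp and Per1 rose and Clock fell, again 3 of 9, with 10.6% of all genes called. In Mst1/2 tumours against Mst1/2 flox liver, Dbp rose and Clock fell, 2 of 9, with 20.3% of all genes called. For both tumour comparisons the members' share lay near that of all genes. The members' median difference in these 3 comparisons was 0.57, 0.59 and 0.56, and that of all genes tested 0.05, 0.02 and -0.00.

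Per1 and Noct were higher in Sav1 than in Mst1/2 surrounding liver, 2 of 9 members, where 0.949% of all genes were called. The members' count there was 0 without Mst1/2 surrounding liver 1 and 1 under median scaling, and the genes called ran from 21 to 861 over the alternative settings, around 133. No member passed with limma in the other comparisons of tumour and surrounding groups or in the line differences. Sav1 tumour against Sav1 surrounding liver had 12.9% of all genes called and 2 members at an unadjusted p under 0.05. Mst1/2 surrounding against Mst1/2 flox liver had 4.02% of genes called and 0 members at that level, and Mst1/2 tumour against Mst1/2 surrounding liver had 0.0785% of genes and 2 members. Sav1 against Mst1/2 tumours had 3.8% of genes called and 1 member at an unadjusted p under 0.05. The differences between lines were tested as interaction terms and no member passed. For tumour against surrounding liver 0.0856% of genes were called, for tumour against flox liver 1.11% and for surrounding against flox liver 0.592%, with 2, 0 and 1 members at an unadjusted p under 0.05. Comparisons with the same flox livers share those 3 arrays, so their values are not independent of each other.

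**Figure D1:**
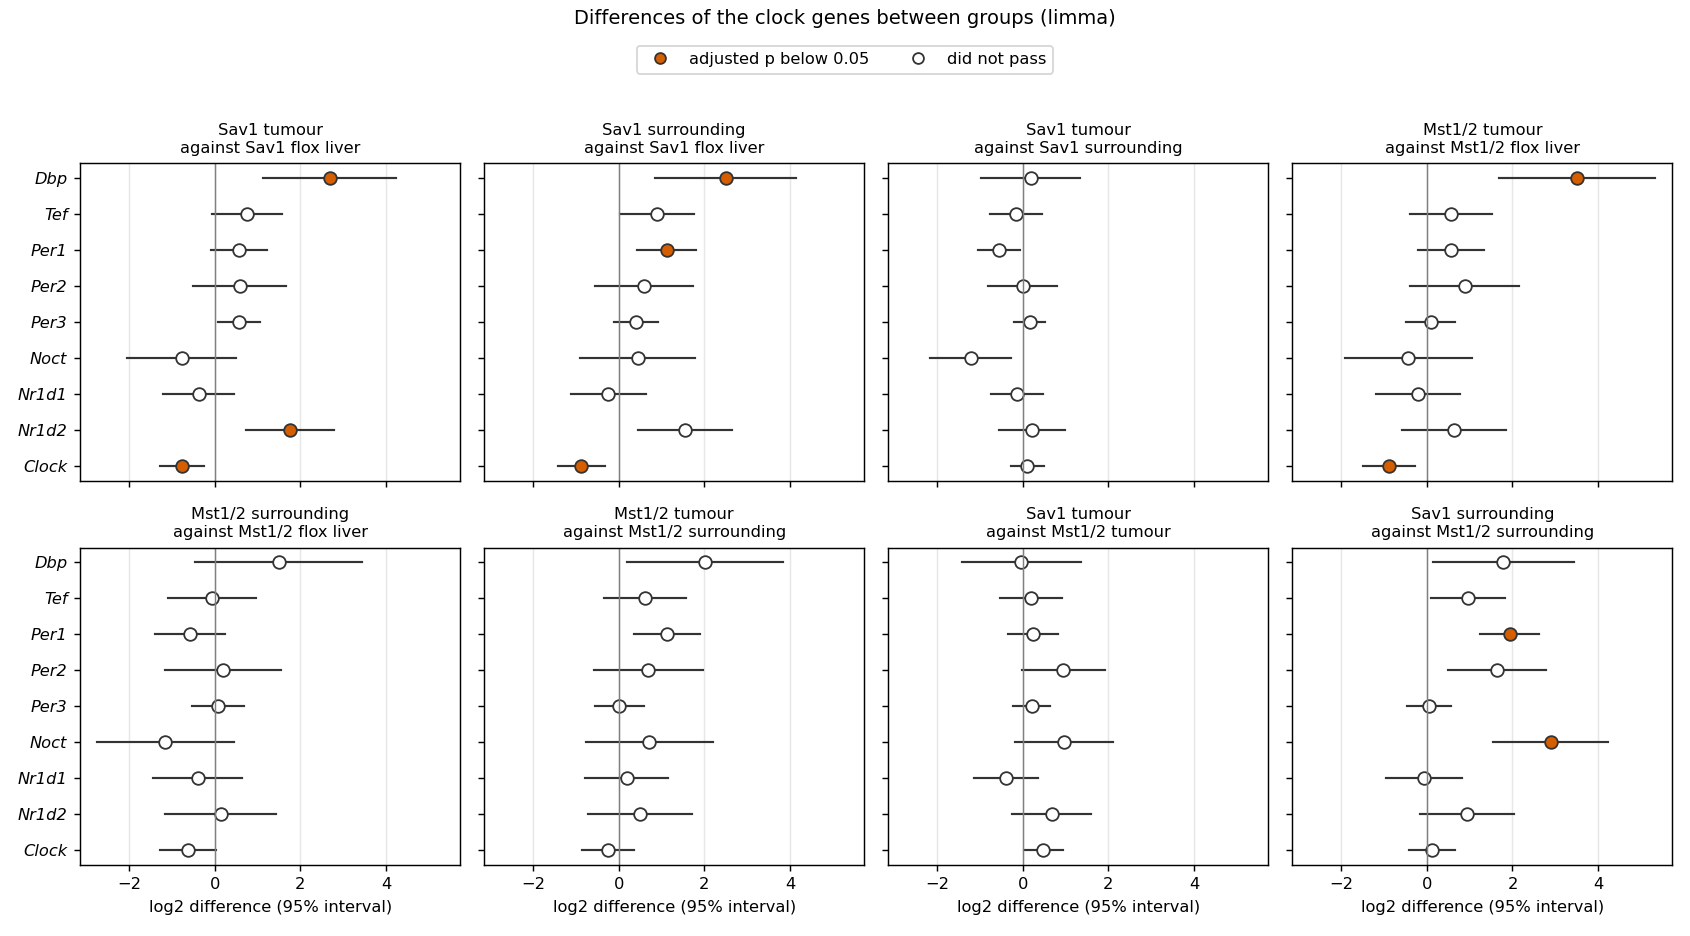
Differences in log2 level of the 9 clock genes in 8 comparisons, with 95% intervals from the limma fit; filled points passed at an adjusted p below 0.05. Filled points are Dbp in 3 comparisons with flox liver, Clock in the same 3, Nr1d2 and Per1 in 1 each of those, and Per1 and Noct in surrounding liver of Sav1 against Mst1/2. Per3 was not above background on any Sav1 flox array, so its points in the first 2 panels have no measured lower side.

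Dbp, the PAR-bZip factor named for binding the albumin promoter's D-site, was the member with the widest range, from 7.88 to 14.20 over the 33 arrays, an 80.2-fold span. In Sav1 flox liver its levels were 12.66, 7.98 and 7.88, and in Mst1/2 flox liver 8.20, 8.07 and 9.87. Wild-type livers stood at 13.49 and 13.53. Normal liver thus held both the lowest values of the study and values near its highest, and Sav1 flox liver 1 stood far above the other arrays of its group.

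Sav1 surrounding livers had Dbp between 10.27 and 14.20 with a median of 11.72, and Sav1 tumours between 9.57 and 13.41 with a median of 12.19. Surrounding livers of the Mst1/2 line were at 10.47, 10.15 and 10.01, and Mst1/2 tumours at 12.25, 12.16, 12.60 and 11.89. The Mst1/2 tumours and the Mst1/2 flox livers did not overlap, whereas both Sav1 groups overlapped their flox livers through Sav1 flox liver 1. In the order of group means wild-type liver came first, followed by Mst1/2 tumours, Sav1 tumours, Sav1 surrounding, Mst1/2 surrounding, Sav1 flox and Mst1/2 flox livers. Of these neighbours only wild-type livers and Mst1/2 tumours did not overlap. For the 8 other members all neighbours in the order of means overlapped except Mst1/2 tumours above Mst1/2 surrounding livers for Per2 and wild-type above Mst1/2 flox livers for Nr1d1.

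Against its flox livers, Dbp rose 11.4-fold in Mst1/2 tumours (log2 difference 3.51 ± 0.89 SE, adjusted p = 0.0057, higher than the flox mean in 4 of 4). It rose 6.42-fold in Sav1 tumours (2.68 ± 0.76, adjusted p = 0.0077, 11 of 11) and 5.63-fold in Sav1 surrounding liver (2.49 ± 0.80, adjusted p = 0.044, 7 of 7), and the last of these calls was lost in 13 of 18 alternative settings. The Sav1 calls rested on the low pair of flox livers. Without Sav1 flox liver 2 the tumour difference was 1.92 (adjusted p = 0.11), without Sav1 flox liver 3 it was 1.87 (adjusted p = 0.11), without Sav1 flox liver 1 it was 4.26 (adjusted p = 0.00012), and within array set A, 3 arrays against 3, it was 2.06 ± 1.5 (adjusted p = 0.48). The surrounding-liver difference within set A was 2.20 ± 1.33 (adjusted p = 0.43), and without Sav1 flox liver 1 it was 4.07 (adjusted p = 0.0016).

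The choice of normal liver weighed on Dbp as well. It was the only member that differed among the 3 normal groups (limma F test, adjusted p = 0.013, with 5.29% of all genes called). Wild-type liver was higher by 4.01 ± 1.06 than Sav1 flox liver (adjusted p = 0.041) and by 4.80 ± 1.06 than Mst1/2 flox liver (adjusted p = 0.011). Leaving out either wild-type liver ended that call. Set against the mean of the 3 normal groups, Dbp was 1.61 ± 0.55 higher in Sav1 tumours (adjusted p = 0.017) and 1.65 higher in Mst1/2 tumours, but there the adjusted p was 0.083. With that control 6302 of all 14018 genes were called in Sav1 tumours.

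**Figure D2:**
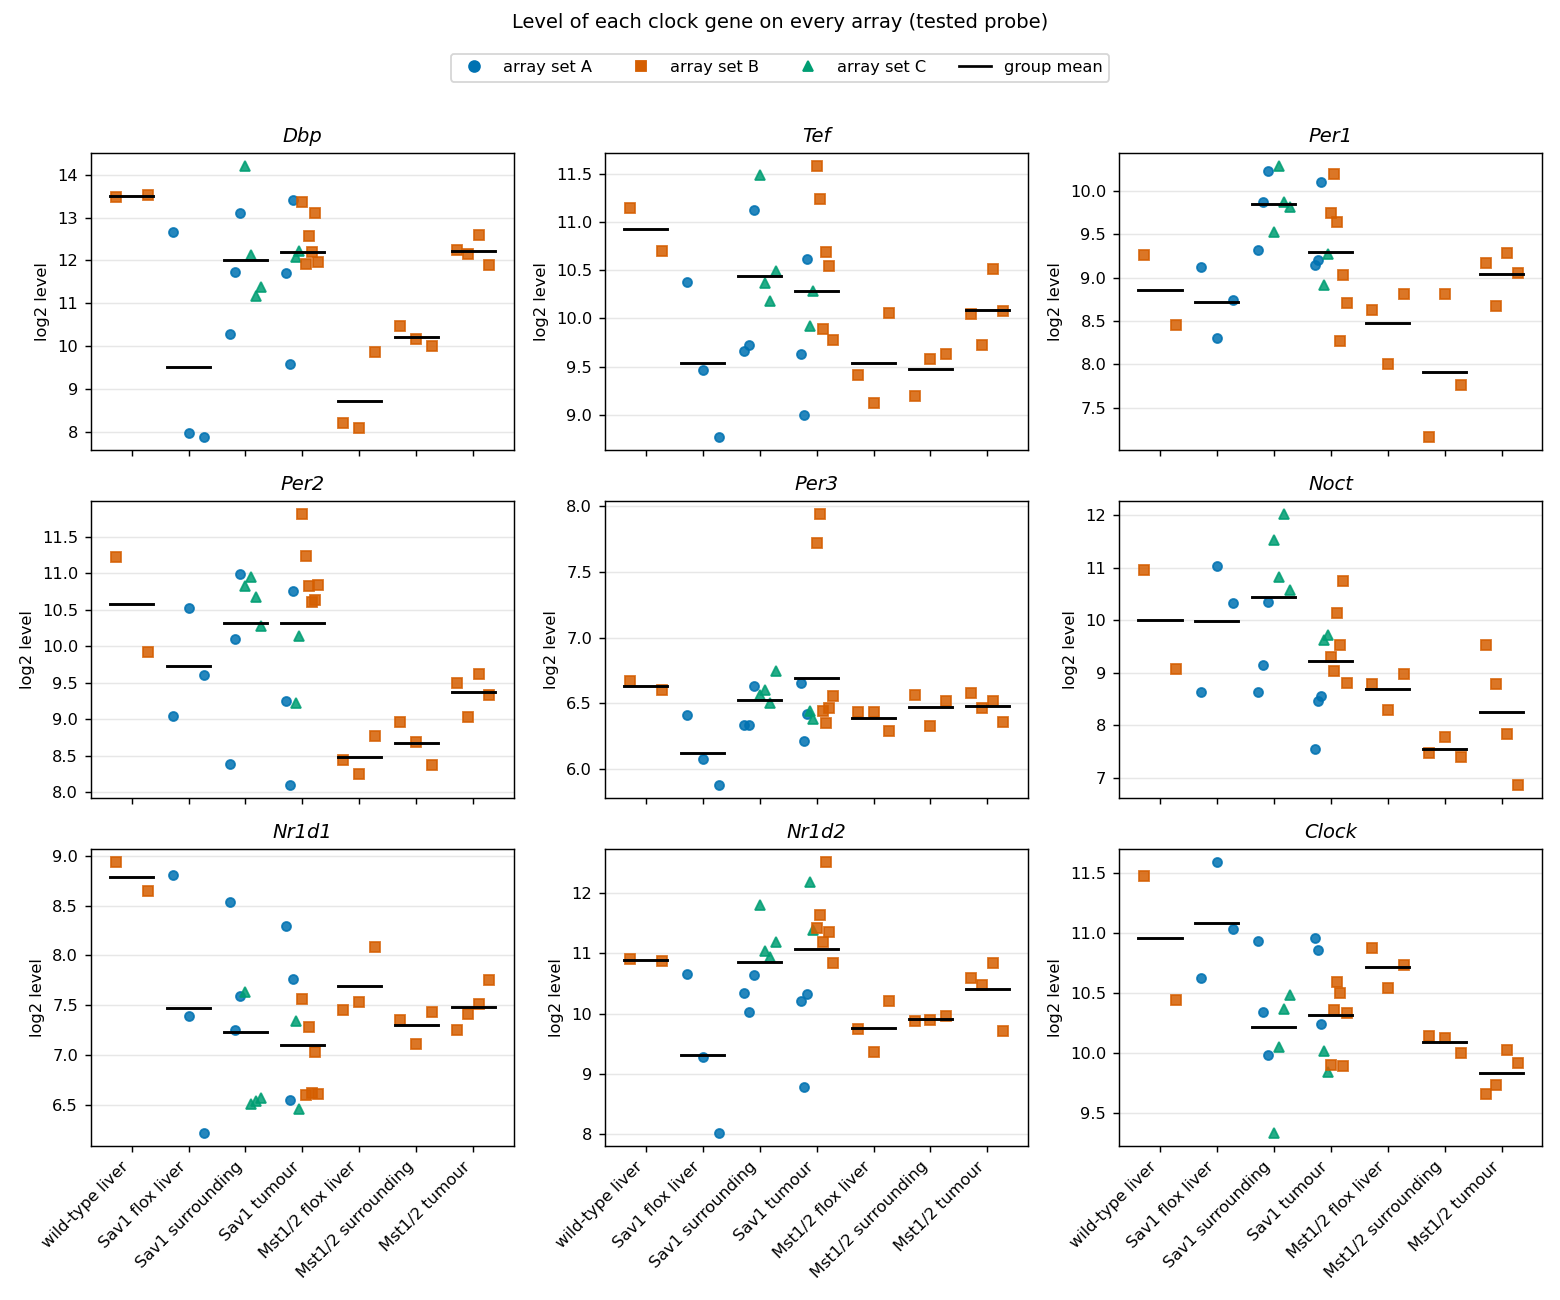
Log2 level of each clock gene on every array, by group, for the tested probe; black lines are group means and colours and shapes give the array set. Dbp runs from 7.88 to 14.20 with Sav1 flox livers split between 12.66 and 7.88, and Per3 stays near the background except in Sav1 tumours 6 and 7.

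Tef, the second PAR-bZip factor, is a paralogue of Dbp that binds the same D-box elements. Both of its promoter windows hold the perfect E-box, the letters to which CLOCK and BMAL1 bind, so they are shown with that element in capitals (RefSeq, GRCm38.p6, 250 bases before to 50 after the start, plus strand, 5′ to 3′). The E-box begins at -127 in the first window, chr15:81802423-81802722, and at -138 in the second, chr15:81811164-81811463, counted from the start of the transcript.
Tef, first window: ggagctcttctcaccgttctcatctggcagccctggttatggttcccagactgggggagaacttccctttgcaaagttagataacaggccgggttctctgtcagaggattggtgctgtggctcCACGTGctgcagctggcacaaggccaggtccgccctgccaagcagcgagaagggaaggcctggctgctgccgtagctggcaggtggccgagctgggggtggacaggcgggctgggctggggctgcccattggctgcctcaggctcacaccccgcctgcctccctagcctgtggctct
Tef, second window: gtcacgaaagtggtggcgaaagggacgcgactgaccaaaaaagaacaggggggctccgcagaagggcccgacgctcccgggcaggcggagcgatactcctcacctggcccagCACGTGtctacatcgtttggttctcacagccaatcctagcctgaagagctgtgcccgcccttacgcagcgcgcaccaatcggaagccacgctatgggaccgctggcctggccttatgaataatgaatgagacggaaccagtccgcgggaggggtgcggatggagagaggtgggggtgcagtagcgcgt

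Tef followed Dbp at smaller size. Its levels were 10.37, 9.47 and 8.77 in Sav1 flox liver, 9.41, 9.12 and 10.06 in Mst1/2 flox liver, and 11.15 and 10.70 in wild-type liver. Sav1 surrounding livers ran from 9.66 to 11.49 (median 10.36) and Sav1 tumours from 8.99 to 11.58 (median 10.28). The Mst1/2 line had surrounding livers at 9.20, 9.58 and 9.63 and tumours at 10.05, 9.73, 10.51 and 10.07. The groups overlapped, and Tef passed in no comparison: 0.75 ± 0.40 in Sav1 tumours (adjusted p = 0.15) and 0.90 ± 0.42 in Sav1 surrounding liver (adjusted p = 0.16) against flox liver. Deviations of Tef and Dbp from their group means had a Pearson r of 0.76 over the 33 arrays, a description of these arrays. A second Tef probe was above background on 11 of 33 arrays.

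Per1 encodes a repressor of CLOCK and BMAL1 and is also induced directly by light-linked and stress signals, among them glucocorticoids. Its first promoter window, chr11:69098699-69098998 on the plus strand, holds the E-box at -166, shown in capitals, and is given for comparison with Tef.
Per1, first window: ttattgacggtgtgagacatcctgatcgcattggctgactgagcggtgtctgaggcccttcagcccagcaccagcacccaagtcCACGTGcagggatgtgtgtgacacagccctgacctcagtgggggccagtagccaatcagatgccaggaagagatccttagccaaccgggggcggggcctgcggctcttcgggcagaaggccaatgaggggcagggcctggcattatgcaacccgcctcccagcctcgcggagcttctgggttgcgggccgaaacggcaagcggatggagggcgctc

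Per1 was highest in Sav1 surrounding liver, from 9.32 to 10.28 with a median of 9.87. Sav1 flox livers had 9.12, 8.31 and 8.74, and every surrounding liver lay above all 3. The Mst1/2 surrounding livers were the lowest group at 7.17, 8.81 and 7.76, and Mst1/2 flox livers had 8.63, 8.00 and 8.81. Sav1 tumours ran from 8.27 to 10.19 (median 9.20), Mst1/2 tumours were at 9.17, 8.68, 9.28 and 9.05, and wild-type livers at 9.25 and 8.46. Tumours of the lines overlapped, while surrounding livers of the lines did not overlap at all.

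The rise of Per1 in Sav1 surrounding over Sav1 flox liver was 2.18-fold (1.12 ± 0.34, adjusted p = 0.033, 7 of 7), and within set A the difference was 1.08 ± 0.29 (adjusted p = 0.16). This call ended without Sav1 flox liver 2 (0.91, adjusted p = 0.21), Sav1 flox liver 3 (1.13, adjusted p = 0.089) or surrounding liver 5 (1.05, adjusted p = 0.064). Between the lines, Per1 was 3.82-fold higher in Sav1 than in Mst1/2 surrounding liver (1.93 ± 0.34, adjusted p = 0.0030, 7 of 7). Its second probe gave 1.37 ± 0.24 in a fit over all probes (adjusted p = 0.0045). Leaving out Mst1/2 surrounding liver 1, the lowest array, reduced the difference to 1.56 (adjusted p = 0.072). The line difference in surrounding against flox liver was 1.69 ± 0.52 and did not pass (adjusted p = 0.15), nor did that in tumour against surrounding liver, -1.69 ± 0.44 (adjusted p = 0.23). Surrounding livers of the lines lie in different array sets (A and C against B), so no value within a set can be had there.

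Per2, the Period protein most needed for the rhythm in mice, had 9.04, 10.53 and 9.61 in Sav1 flox liver and 8.44, 8.25 and 8.77 in Mst1/2 flox liver. Wild-type livers were at 11.23 and 9.93. Sav1 surrounding livers ran from 8.39 to 10.98 (median 10.67) and Sav1 tumours from 8.10 to 11.81 (median 10.64). In the Mst1/2 line surrounding livers had 8.96, 8.69 and 8.37 and tumours 9.50, 9.03, 9.62 and 9.33, and these groups did not overlap, although the difference of 0.69 ± 0.62 did not pass (adjusted p = 0.90). Per2 passed in no comparison of the fit over all groups. Mst1/2 tumours against flox liver gave 0.88 in both fits, and with these groups alone this passed (adjusted p = 0.0074). With these groups alone 4593 genes were called, against 2851 in the fit over all groups. Sav1 against Mst1/2 tumours differed by 0.94 ± 0.47 (adjusted p = 0.28), but the 6 Sav1 tumours of array set B, from 10.61 to 11.81, all lay above the 4 Mst1/2 tumours of the same set. Within that set Per2 was 1.62 ± 0.24 higher in Sav1 tumours (adjusted p = 0.0059). The 5 Sav1 tumours of the other sets were at 9.25, 8.10, 10.76, 9.22 and 10.14.

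Per3, a Period paralogue with a minor part in keeping time, was barely measured. Its tested probe was above background on 23 of 33 arrays, and on none of the 3 Sav1 flox arrays, so those comparisons have no measured lower side and no fold is given for them. It stayed between 5.88 and 6.75 on 31 arrays. Sav1 tumours 6 and 7 stood apart at 7.72 and 7.94. A second Per3 probe read 6.61 and 6.34 in these tumours, within its range of 6.12 to 6.67 over the 11 Sav1 tumours. The Per3 promoter window, chr4:151044616-151044915 on the minus strand, is the only member window with D-boxes, the element of DBP and TEF, and they are given in capitals.
Per3, window: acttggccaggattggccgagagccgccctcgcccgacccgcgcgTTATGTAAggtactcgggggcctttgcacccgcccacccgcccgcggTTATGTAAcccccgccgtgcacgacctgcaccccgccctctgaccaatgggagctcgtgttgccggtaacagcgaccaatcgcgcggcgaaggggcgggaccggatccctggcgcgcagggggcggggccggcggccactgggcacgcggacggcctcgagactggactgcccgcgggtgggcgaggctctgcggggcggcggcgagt

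Noct encodes nocturnin, a rhythmic liver enzyme that acts on the cofactor NADPH. On its second probe Sav1 flox livers had the highest mean and the highest array, 10.73 and 12.25, against 10.51 and 11.95 in Sav1 surrounding livers. On the tested probe, to which the levels below belong, Sav1 surrounding livers held the highest values, from 8.62 to 12.02 with a median of 10.57. Mst1/2 surrounding livers were at 7.46, 7.77 and 7.39, below every Sav1 surrounding liver. Flox livers had 8.62, 11.03 and 10.32 in the Sav1 line and 8.79, 8.29 and 8.98 in the Mst1/2 line, and wild-type livers 10.96 and 9.07. Sav1 tumours ran from 7.56 to 10.75 (median 9.30), and Mst1/2 tumours had 9.53, 8.79, 7.84 and 6.86.

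Noct was 7.44-fold higher in Sav1 than in Mst1/2 surrounding liver (2.90 ± 0.66, adjusted p = 0.027, 7 of 7), and its second probe gave 2.97 ± 0.63 (adjusted p = 0.020). Leaving out any of the 3 Mst1/2 surrounding livers or Sav1 surrounding liver 4 took the adjusted p to between 0.051 and 0.17, and median scaling took it to 0.065. With the replicate number as a block, which rests on the shared numbers 1 to 3 alone, Noct differed by 1.83 (adjusted p = 0.045) and Per1 by 1.89 (adjusted p = 0.026). Mice of these genotypes cannot be 1 animal, so this block pairs unrelated mice and its values do not bear on the calls. Under it the genes called in that comparison went from 133 to 861. Sav1 tumours and Sav1 surrounding liver differed in Noct by -1.21 ± 0.46 (adjusted p = 0.081, not passed), and leaving out surrounding liver 1, surrounding liver 2 or tumour 10 took this to between 0.032 and 0.044. The second probe of Noct fell there by 1.58 ± 0.44 (adjusted p = 0.020) and fell against Sav1 flox liver by 1.79 ± 0.59 (adjusted p = 0.021). On the tested probe the difference from flox liver was -0.77 ± 0.62 (adjusted p = 0.35), and -1.89 ± 0.59 with the array set as a block (adjusted p = 0.023), so the probes and the settings part ways on whether Noct is lower in Sav1 tumours.

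Nr1d1 encodes REV-ERB alpha, a heme-sensing receptor that represses Arntl. It was highest in wild-type liver, at 8.94 and 8.64, above Mst1/2 flox liver (7.45, 7.53 and 8.09) with no overlap. Sav1 flox livers spread over 8.81, 7.39 and 6.22. Sav1 surrounding livers ran from 6.51 to 8.53 (median 7.25) and Sav1 tumours from 6.46 to 8.30 (median 7.03). Mst1/2 surrounding livers had 7.35, 7.11 and 7.43 and Mst1/2 tumours 7.25, 7.41, 7.51 and 7.76. It passed in no comparison between 2 groups, with -0.37 ± 0.41 in Sav1 tumours against flox liver (adjusted p = 0.50). Against the mean of the 3 normal groups it was lower in Sav1 tumours by -0.88 ± 0.29 (adjusted p = 0.015), where 6302 of all 14018 genes were called.

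Nr1d2 encodes REV-ERB beta, which shares the targets of its paralogue. Sav1 flox livers had 10.66, 9.28 and 8.02, Mst1/2 flox livers 9.74, 9.36 and 10.20, and wild-type livers 10.91 and 10.87. Sav1 surrounding livers ran from 10.03 to 11.81 (median 10.95) and Sav1 tumours from 8.79 to 12.52 (median 11.36). Mst1/2 surrounding livers were close together at 9.88, 9.89 and 9.96, and Mst1/2 tumours had 10.60, 10.47, 10.84 and 9.72. In both Sav1 groups arrays 1 to 3, which belong to set A, were the lowest: surrounding livers 10.34, 10.03 and 10.65 against 10.95 or more, and tumours 10.22, 8.79 and 10.33 against 10.84 or more.

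Nr1d2 rose 3.39-fold in Sav1 tumours over Sav1 flox liver (1.76 ± 0.51, adjusted p = 0.0087, 10 of 11), and its second probe rose by 1.29 ± 0.50 (adjusted p = 0.046). Within array set A the difference was 0.46 ± 0.72 (adjusted p = 0.76), and with the set as a block 0.72 ± 0.46 (adjusted p = 0.29). Without Sav1 flox liver 3 it was 1.11 (adjusted p = 0.15), and a fit of these 2 groups alone gave an adjusted p of 0.067. In surrounding liver the difference from flox liver was 1.54 ± 0.54 and did not pass (adjusted p = 0.061), though it did under median scaling (2.01, adjusted p = 0.032) and without Sav1 flox liver 1 (2.21, adjusted p = 0.019). Array set moved with this gene, and its part in the rise was not tested beyond these values.

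Clock encodes the activator itself, whose transcript swings less than those of its targets. Flox livers were at 10.62, 11.59 and 11.03 in the Sav1 line and at 10.87, 10.54 and 10.73 in the Mst1/2 line, with 11.47 and 10.44 in wild-type liver. Sav1 surrounding livers ran from 9.33 to 10.93 (median 10.34) and Sav1 tumours from 9.84 to 10.96 (median 10.34). Mst1/2 surrounding livers had 10.14, 10.12 and 10.00 and Mst1/2 tumours 9.66, 9.74, 10.02 and 9.91, all below every Mst1/2 flox liver.

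Clock fell by 0.88 ± 0.30 in Mst1/2 tumours (adjusted p = 0.034, 4 of 4), by 0.76 ± 0.25 in Sav1 tumours (adjusted p = 0.021, 11 of 11) and by 0.87 ± 0.27 in Sav1 surrounding liver (adjusted p = 0.036, 7 of 7), each against its flox livers. A second probe of Clock fell in the same 3 comparisons, by 0.69 (adjusted p = 0.027), 0.77 (adjusted p = 0.0023) and 0.75 (adjusted p = 0.014). The calls depended on scaling. When arrays were scaled to a common median in place of quantile normalization, the median of all genes moved to 0.18, 0.29 and 0.21 in these comparisons, and Clock was at -0.49, -0.20 and -0.45, which did not pass (adjusted p = 0.25, 0.55 and 0.28). Relative to the median of all genes it then stood at -0.67, -0.49 and -0.65. Within array set A the Sav1 differences were -0.40 ± 0.31 in tumours and -0.66 ± 0.32 in surrounding liver (adjusted p = 0.51 and 0.33). Leaving out any 1 Mst1/2 flox liver, or Mst1/2 tumour 1 or 2, took the Mst1/2 call to an adjusted p between 0.058 and 0.12. The Sav1 tumour call ended without Sav1 flox liver 2 (-0.51, adjusted p = 0.21) or 3 (-0.79, adjusted p = 0.057). In surrounding liver leaving out Sav1 flox liver 2 or 3, or surrounding liver 4 or 5, gave adjusted p-values between 0.063 and 0.27.

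Arrays of a group differed from each other in the clock genes more than in most genes. The within-group SD was 1.22 for Dbp, and 99.2% of the genes tested had a lower one. The same share was 98.1% for Noct, 96.6% for Per2, 96.1% for Nr1d2, 91.4% for Nr1d1, 90.9% for Tef and 82.5% for Per1. Clock and Per3, at 68.1% and 63.6%, were nearer to the median SD of all genes, 0.311. Outside the 9 members, Usp2 (98.9%), a rhythmic deubiquitinase, Ciart (96.0%), a repressor of CLOCK and BMAL1, and Arntl (95.9%) spread widely too, whereas Bhlhe40 (82.0%), Cry2 (55.8%), Npas2 (25.1%) and Hlf (3.8%) did less so. Npas2 and Hlf lay near background on most arrays. As sampling hours are not in the labels, their part in this spread was not tested.

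**Figure D3:**
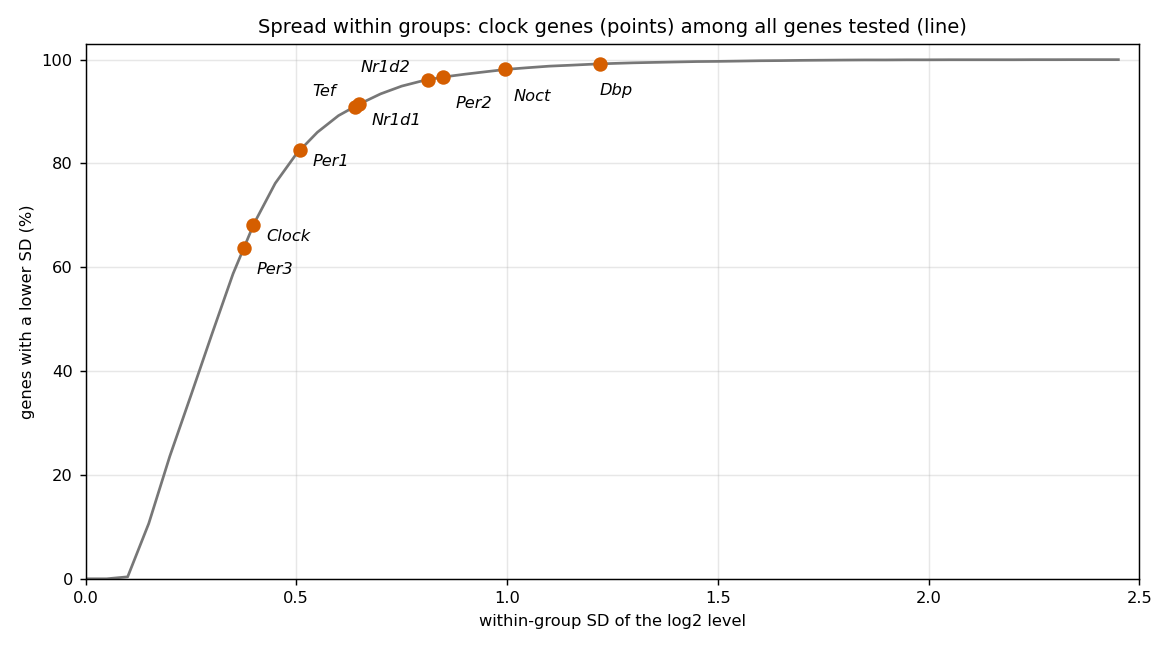
Percentage of all 14018 tested genes with a lower within-group SD, against that SD in log2 units; the line is all genes and the points are the clock genes. Dbp, Noct, Per2 and Nr1d2 lie at 96.1% or above, while Clock (68.1%) and Per3 (63.6%) lie lower on the curve.

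The activator Arntl, which no member stands for, was read beside them. Sav1 flox livers had 8.11, 9.92 and 9.59, the first of them being the array with high Dbp. Mst1/2 flox livers were at 10.02, 10.11 and 10.03, Mst1/2 surrounding livers at 9.78, 9.69 and 9.63, and wild-type livers at 8.24 and 7.54. Sav1 surrounding livers ran from 6.85 to 9.23 (median 8.61), Sav1 tumours from 6.40 to 9.23 (median 8.43), and Mst1/2 tumours were at 8.43, 8.78, 8.09 and 9.16. The 3 groups with the lowest mean Dbp had the 3 highest means of Arntl. Mst1/2 tumours lay below all Mst1/2 flox livers, but the difference of -1.44 ± 0.58 did not pass (adjusted p = 0.081), nor did -1.16 ± 0.50 in Sav1 tumours (adjusted p = 0.074) or -1.0 ± 0.53 in Sav1 surrounding liver (adjusted p = 0.21).
Of the 2 Arntl promoter windows, the second, chr7:113207261-113207560 on the plus strand, holds a RORE, the element of the REV-ERB and ROR receptors, at 27 bases past the start. It is shown with that element in capitals because Nr1d1 and Nr1d2 act on it.
Arntl, second window: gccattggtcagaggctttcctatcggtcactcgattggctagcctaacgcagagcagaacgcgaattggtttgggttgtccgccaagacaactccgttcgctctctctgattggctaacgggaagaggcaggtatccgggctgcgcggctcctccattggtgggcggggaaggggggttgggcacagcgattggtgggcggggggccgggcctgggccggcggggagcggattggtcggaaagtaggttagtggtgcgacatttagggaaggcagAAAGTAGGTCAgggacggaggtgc

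Motifs were searched on both strands of 12 windows for 8 of the 9 members. The E-box CACGTG, which reads the same on both strands, occurred in 3 of the 12 windows, those of 2 members, Tef and Per1, and in 7.15% of 32851 promoter windows. The D-box TTANGTAA occurred in 1 member (1 of the 12 windows) and in 2.32% of all windows. The RORE occurred in no member and in 0.384% of all windows, and the cyclic AMP element TGACGTCA in no member and 1.79% of all windows. AGGTCA, which the RORE contains, occurred in 3 members (Per1, Nr1d2 and Clock, 3 of the 12 windows) and in 16.3% of all windows. A match describes the letters only, and no match says that these letters are not in this window.

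**Figure D4:**
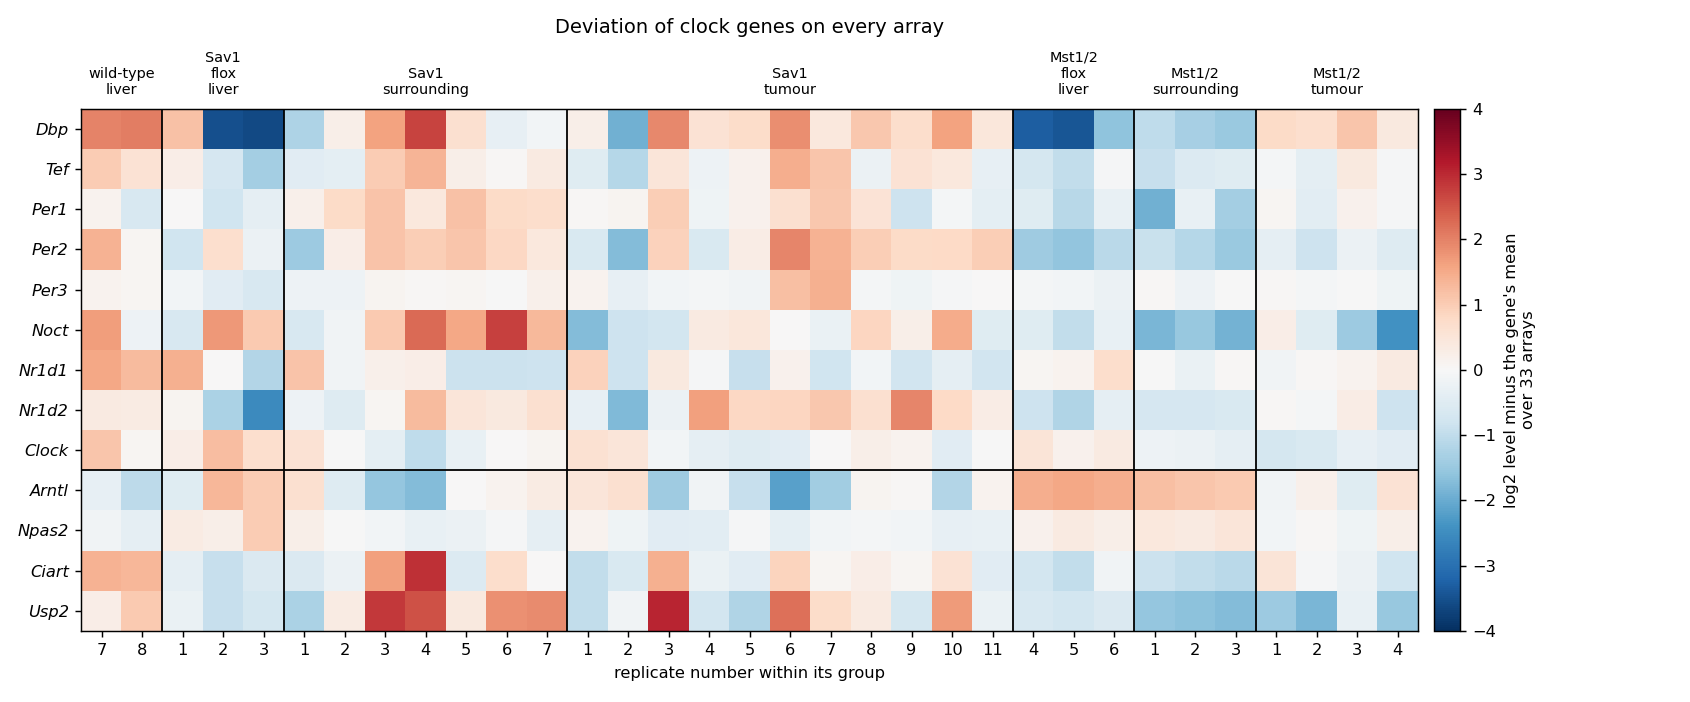
Deviation of each log2 level from the gene's mean over 33 arrays, for the 9 clock genes and, below the line, Arntl, Npas2, Ciart and Usp2; columns are arrays numbered within their group. Sav1 flox livers 2 and 3 and the Mst1/2 flox livers are low in Dbp and high in Arntl, while wild-type livers show the opposite.

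Only the Sav1 tumours (n = 11) and Sav1 surrounding livers (n = 7) have enough arrays to relate genes across arrays of 1 group. Each member was set against Arntl and Dbp in both groups, 34 relations in all. By permutation p with Benjamini-Hochberg adjustment, 10 passed for Pearson's r and 3 for Spearman's rho. In Sav1 tumours Arntl ran against Tef with r = -0.89 (adjusted permutation p = 0.010) and rho = -0.89 (adjusted permutation p = 0.016), and r was -0.83 without the 2 arrays farthest from the Arntl median. Arntl against Dbp gave r = -0.71 (adjusted permutation p = 0.040), rho = -0.74 (adjusted permutation p = 0.087) and -0.55 without those 2 arrays. Arntl against Per2 gave r = -0.72, and Arntl with Clock r = 0.74 (adjusted permutation p = 0.040 for each), with 0.74 for Clock without the 2 arrays. Dbp went with Per2 (r = 0.79) and Tef (r = 0.71, adjusted permutation p = 0.040 for each), but rho for Per2 was 0.45 (adjusted permutation p = 0.32). Arntl left a gap between 5 tumours at 6.40 to 7.65 and 6 at 8.43 to 9.23.

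In Sav1 surrounding liver the tightest relation was that of Dbp with Clock, r = -0.97 (adjusted exact permutation p = 0.020) and rho = -0.96 (adjusted exact permutation p = 0.031), with r = -0.89 without the 2 arrays farthest from the Dbp median. Arntl against Dbp gave r = -0.93 (adjusted exact permutation p = 0.040) and -0.73 without 2 arrays, Arntl with Clock r = 0.86 (adjusted exact permutation p = 0.040) and 0.66, and Dbp with Tef r = 0.90 (adjusted exact permutation p = 0.040) and 0.71. Within the 6 Sav1 tumours of array set B, 0 of 17 relations passed by permutation with adjustment, and 2 had an unadjusted p under 0.05. With 6 arrays a single relation could pass only at the most extreme of the possible orders, so this count cannot decide whether the relations hold. In these 6 tumours r was -0.88 for Arntl with Tef, -0.59 for Arntl with Dbp, 0.78 for Arntl with Clock and 0.37 for Dbp with Tef. The other sets hold too few arrays of 1 group for a value. All points of a group share 1 normalization, and cell mixture varies among them, as the marker ranges above show.

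**Figure D5:**
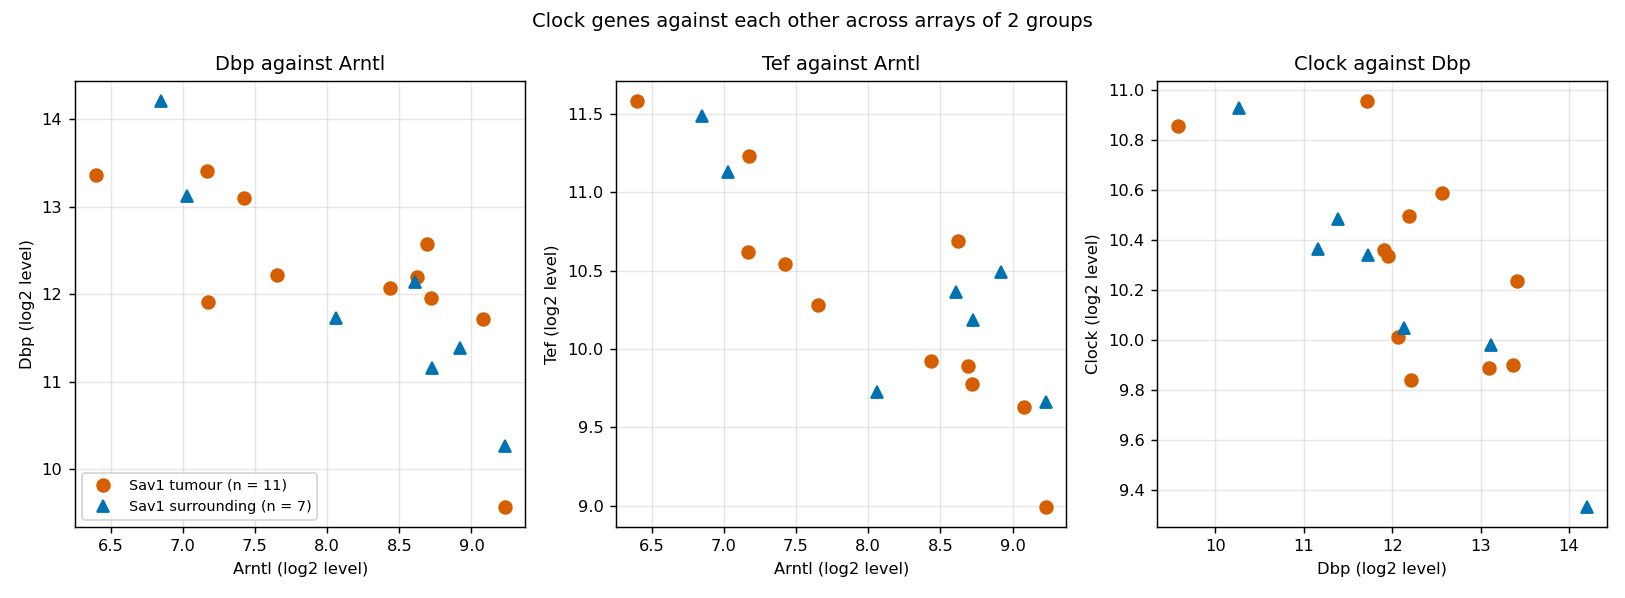
Log2 levels of Dbp and Tef against Arntl, and of Clock against Dbp, on each array of Sav1 tumours (circles) and Sav1 surrounding livers (triangles). Dbp and Tef are high where Arntl is low, down to 6.40 in tumours, and in surrounding liver Clock runs from 10.93 down to 9.33 as Dbp goes from 10.27 to 14.20.

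Sav1 tumours and surrounding livers share the numbers 1 to 7, but the labels do not say that a number marks a mouse. Noct had surrounding levels of 8.62, 9.14, 10.34, 11.53, 10.82, 12.02 and 10.57 and tumour levels of 7.56, 8.45, 8.55, 9.63, 9.73, 9.30 and 9.03 at these numbers in turn. For Noct as for Nr1d2, numbers 1 to 3 were the lowest in both tissues, and they are the arrays of set A, so no coefficient over the 7 numbers is given. For the other 7 members the adjusted exact permutation p-values of r were 0.16 or more.

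By the same deviations from group means over all 33 arrays, the genes outside the members most like Dbp were Pim3 (r = 0.72), a kinase of the PIM family, Ngef (0.70), Lcn3 (0.66), Ankrd35 (0.66) and Ccdc92b (0.65). Those most unlike it were the tubulin gene Tubb2b (-0.80), Arntl (-0.76) and Sh2b3 (-0.72). Clock went most with Cwc22 (0.82), Khdc4 (0.76), Arntl (0.75), Ddc (0.74) and Nup160 (0.74), and least with Bri3 (-0.75), Dctpp1 (-0.73) and Edf1 (-0.72). Per2 went with Dst (0.79), Rab11fip3 (0.78), Odc1 (0.78), Man2a1 (0.77) and Utp15 (0.76), against Cenpa (-0.76), Ckap2 (-0.74) and Bloc1s3 (-0.74). Nr1d1 went with Fbxo21 (0.76), Heca (0.75), Kat2b (0.75), Dact2 (0.75) and Fv1 (0.75), against H3c1 (-0.75), H2-Aa (-0.73) and Sae1 (-0.70). Arntl was thus among the most unlike genes for Dbp and the most like genes for Clock. These coefficients were picked as extremes of 14018 genes and are descriptions.

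Among other clock activators, 3 genes were tested, and Arntl2 was not above background. In Sav1 tumours against flox liver Npas2, which can stand in for CLOCK, and Rora, an activating receptor on ROREs, fell, 2 of 3, with a median of -0.73 against 0.05 for all genes. That comparison had 33.2% of all genes called, and Sav1 surrounding against flox liver 10.6%. Npas2 was not above background on any Sav1 tumour array, so its fall was at least 1.41-fold (adjusted p = 0.00021, tumour mean 6.19, flox mean 6.92). Rora fell by 0.72 ± 0.19 (adjusted p = 0.0055). The same genes fell in Sav1 surrounding liver, Npas2 with a fitted difference of -0.65 ± 0.15 (adjusted p = 0.0063, 1 of 7 surrounding arrays above background) and Rora by 0.71 ± 0.21 (adjusted p = 0.027). None of the 3 passed in the Mst1/2 comparisons, and no line difference passed for them.

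Of the other repressors and bZip factors 5 of 8 were tested, with Nfil3 lacking a probe and Cry1 and Bhlhe41 not above background. In Sav1 tumours against flox liver 1 of the 5 rose and 1 fell, where 33.2% of all genes were called. Against flox liver 1 rose in Mst1/2 tumours (20.3% of all genes called) and 1 fell in Sav1 surrounding liver (10.6%). Timeless, a replication-fork factor related to a fly clock gene, rose in Sav1 tumours by 0.96 ± 0.23 (adjusted p = 0.0025) and in Mst1/2 tumours by 1.11 ± 0.27 (adjusted p = 0.0048). Hlf, the third PAR-bZip factor, fell in Sav1 tumours (-0.39 ± 0.09, adjusted p = 0.0024), where 1 of 11 arrays was above background. In surrounding liver it was not above background on any array, which gives a fall of at least 1.17-fold (adjusted p = 0.013). Ciart was at 6.68 ± 0.28 (n = 3) in Sav1 flox liver and 7.34 ± 0.71 (n = 11) in Sav1 tumours (adjusted p = 0.31). Of 7 measured turnover genes of 9, the kinase Csnk1e rose in Sav1 tumours (1.10 ± 0.22, adjusted p = 0.00037), Mst1/2 tumours (1.11 ± 0.26, adjusted p = 0.0027) and Mst1/2 surrounding liver (0.94 ± 0.27, adjusted p = 0.045). Btrc, a ubiquitin ligase subunit for PER proteins, fell by 0.79 in Sav1 tumours (adjusted p = 0.0018) and by 0.79 in Sav1 surrounding liver (adjusted p = 0.011). Of the 7 turnover genes 1 thus rose and 1 fell in Sav1 tumours, and 1 fell in Sav1 surrounding liver, each against flox liver. In Mst1/2 tumours 1 rose, and in Mst1/2 surrounding liver 1 rose, where 4.02% of all genes were called.

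Of 18 rhythmic liver genes 17 were measured. In Sav1 tumours against flox liver 3 rose and 5 fell, where 33.2% of all genes were called, with a median of 0.01 against 0.05 for all genes. Nampt, the rate-limiting enzyme of NAD salvage, rose by 2.30 ± 0.45 (adjusted p = 0.00033), Pnpla2, the main fat lipase, by 0.57 ± 0.22 (adjusted p = 0.043), and Wee1, a brake on mitosis that was on no flox array above background, rose at least 1.66-fold (adjusted p = 0.012). Elovl3, a fatty acid elongase, fell (-4.55 ± 0.38, adjusted p = 3.1e-09), although 1 of 11 tumour arrays was above background, so that the value is fitted against a group near its floor. Nr1i3, the xenobiotic receptor CAR and a known target of PAR-bZip factors in mouse liver, fell (-3.08 ± 0.69, adjusted p = 0.0013). The glycogen genes Ppp1r3c (-2.96) and Gys2 (-2.15) and the lipid transporter Mfsd2a (-3.09, with 8 of 11 tumour arrays above background) were lower by the test too. Dbp rose in the comparison in which Nr1i3 fell, against the same 3 flox livers. A relation of Nr1i3 with Dbp across arrays was not tested.

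In Sav1 surrounding liver Nampt rose by 1.73 ± 0.48 (adjusted p = 0.021) and Elovl3 fell (-4.10 ± 0.40, adjusted p = 3.4e-07, 3 of 7 surrounding arrays above background), 1 and 1 of 17, where 10.6% of all genes were called. Sav1 tumours against surrounding liver had none higher and 4 lower, with a median of -0.49: Mfsd2a (-4.02), Nr1i3 (-2.82), Lpin1 (-1.55) and Gys2 (-1.05), where 12.9% of all genes were called. In Mst1/2 tumours against flox liver none rose and 5 fell, where 20.3% of all genes were called, with a median of -1.21: Mfsd2a (-5.07, with 2 of 4 tumour arrays above background), Nr1i3 (-3.60), Ppp1r3c (-3.38), Lpin1 (-2.14) and Lonrf3 (-1.46). Sav1 against Mst1/2 surrounding liver had 2 higher, Alas1, the rate-limiting enzyme of heme synthesis (1.85 ± 0.42, adjusted p = 0.027), and Coq10b (1.57 ± 0.33, adjusted p = 0.016), where 0.949% of all genes were called. Line differences passed for Lpin1 in surrounding against flox liver (3.04 ± 0.60, adjusted p = 0.010) and for Elovl3, at -3.34 ± 0.59 for tumours and -4.15 ± 0.62 for surrounding liver (adjusted p = 0.0035 and 0.00049). Elovl3 was above background on no Mst1/2 tumour array, so the first of these is a fitted value and no bound. Mst1/2 flox livers, where Xist was on, had Elovl3 at 7.22 ± 1.02 and Sav1 flox livers at 10.80 ± 0.53 (n = 3 each).

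Genes that report outside cues for the clock were read as 3 lists. Of 11 measured genes of glucocorticoid and temperature response, Fkbp5, a glucocorticoid target, rose in Sav1 tumours by 1.08 ± 0.27 (adjusted p = 0.0034) and in Sav1 surrounding liver by 1.55 ± 0.29 (adjusted p = 0.0015), and it was the only gene of that list to pass in either. That is 1 of 11 in each, where 33.2% and 10.6% of all genes were called. Its level was 7.93 ± 0.27 (n = 3) in Sav1 flox liver but 9.75 ± 0.53 (n = 3) in Mst1/2 flox liver, the highest group mean, and the line difference in surrounding against flox liver passed (1.97 ± 0.45, adjusted p = 0.032). In Mst1/2 tumours Tat (at least 1.82-fold, adjusted p = 0.0058, on no tumour array above background) and Zbtb16 (-1.17) fell and the chaperone Hspa8 (0.71) rose. That is 2 lower and 1 higher of 11, where 20.3% of all genes were called. Tat is also on the hepatocyte list, as the marker that fell in Mst1/2 tumours. Of 8 measured feeding genes, Igfbp1 (3.59) and Fgf21 (2.62) rose in Sav1 tumours, and Srebf1 (-0.95) and Insig2 (-2.57) fell. The other 4 did not pass there, where 33.2% of all genes were called. None of the 8 passed in Sav1 surrounding liver. Of 7 measured immediate early genes, Egr1 (2.5) and Atf3 (1.71) rose in Sav1 tumours, as did Fosb, for which no lower side was measured in flox liver, and Junb rose in Mst1/2 tumours (2.15). That is 3 of 7 in Sav1 tumours and 1 of 7 in Mst1/2 tumours, where 33.2% and 20.3% of all genes were called. Sampling hour, feeding and handling are not in the labels, and their part in any of these differences was not tested.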

How the data were processed

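Total RNA (mirVana) was turned into biotinylated cRNA, per the labels' protocols. BeadStudio is named in the submitters' processing notes, with no version in the sources used here. The authors deposited linear probe intensity values of 33 arrays without detection p-values, and a matrix of log2 values, which matched the quantile-normalized, uncorrected signals within 0.00500 (median 6.57 in every column). For want of detection p-values, the planned neqc was replaced by normexp (offset 50), quantile normalization and log2 (floor 5.65). Background was the 99th percentile of signals mirrored about an array's mode (80.9 to 109 units). Of 45281 probes, 34885 had 1 gene symbol, 18 several and 10378 none, and 23276 were kept, above background on at least 3 arrays. Of the members' 19 probes 16 were kept. Each gene was read by the brightest of its kept probes. Bounds ("at least") set the dim group at the lowest signal above background on each array, or at its own if higher.

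Groups came from genotype and tissue in the labels. All 33 arrays entered 1 limma 3.58.1 fit (R 4.3.3) with a mean per group, two-sided, with Benjamini-Hochberg adjustment over 14018 genes and a threshold of 0.05. Relations used 100000 permutations, or all of them for 7 arrays (smallest p 0.000397), in Python 3.11.15 with scipy 1.17.1. Figures used matplotlib 3.10.9. No 2 arrays were duplicates (highest r 0.993). Same-numbered arrays were checked by correlating deviations from group means: in Sav1 and Mst1/2 surrounding liver all 3 pairs exceeded 0.1 (0.186 to 0.459), which comes from the data alone, as mice of these genotypes cannot be 1 animal. In Sav1 tumours and surrounding livers 6 of 7 did (0.0881 to 0.687). The steps were tested on simulated data. Genes named were the 9 members, the listed clock, rhythm, cue and marker genes, and the genes most and least like 4 members. Members and lists were chosen with earlier results of these data known. Alternatives were other normalizations, filters, control groups, array sets as a block or alone, the replicate block and leaving out each array.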

Additional observations from a re-analysis of the deposited data

Results flagged for a closer look

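Per2 in Sav1 surrounding liver 1 was 8.39, below the other 6 arrays of its group, the nearest of which was 10.11. The gap was 0.661 of the group's range, above Dixon's 95% critical value for 7 arrays. It was 1 of 18 such tests in groups of 4 to 10 arrays, and chance gives about 1 in 20. On the same array Arntl was the highest of the group (9.23) and Dbp the lowest (10.27).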

How the results depend on the processing

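The counts of called members out of 9 moved with several choices. Scaling arrays to a common median left 1 in Mst1/2 tumours against flox liver and 1 in Sav1 against Mst1/2 surrounding liver. It moved the split of all genes in Sav1 tumours against flox liver from 2424 higher and 2236 lower to 4617 and 675, in Sav1 surrounding liver from 712 and 770 to 1349 and 114, in Mst1/2 tumours from 1587 and 1264 to 2520 and 537, and in Mst1/2 surrounding liver from 371 and 192 to 513 and 63. In Sav1 tumours against surrounding liver the split went from 985 and 818 to 1255 and 573. Under it Tef (1.37, adjusted p = 0.016) and Per1 (1.21, adjusted p = 0.0069) passed in Sav1 tumours and Nr1d2 (2.01, adjusted p = 0.032) in Sav1 surrounding liver against flox liver. Fitting only the groups compared gave 1 in Sav1 surrounding against flox liver, 3 in Mst1/2 tumours against flox liver (Per2 gained, 0.88, adjusted p = 0.0074), 3 in Mst1/2 surrounding against flox liver (Dbp, Noct and Clock) and 1 in Mst1/2 tumours against surrounding liver. For Mst1/2 tumours and Mst1/2 surrounding liver against flox liver, that fit called 4593 and 4114 of all 14018 genes. The members' 3 of 9 lay near that share in both. The array set as a block gave 1 in Sav1 tumours (Noct) and 0 in Sav1 surrounding liver against flox liver, and 1 in Sav1 against Mst1/2 tumours (Per2). In the last of these 1916 genes were called. Array set A alone gave 0 and 0 against flox liver, and set B alone 1 between tumours. In Sav1 tumours against surrounding liver set A alone called 6 of all genes, so a count of 0 from so few arrays says little about the members. With all 3 normal groups averaged as the control the count was 5 in Sav1 tumours, 1 in Mst1/2 tumours and 2 in Mst1/2 surrounding liver. In Sav1 tumours 6302 of all 14018 genes were called with that control.

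With the replicate number as a block the counts were 0 in Sav1 tumours and 0 in Sav1 surrounding liver against flox liver, and 1 in Sav1 tumours against surrounding liver (Noct, -1.54, adjusted p = 0.0069). In Sav1 tumours and Sav1 surrounding liver against flox liver 75 and 0 genes were then called. Numbers were taken as pairs only where every pair exceeded a correlation of 0.1. In both flox comparisons 0 of 3 did. In Sav1 tumours against surrounding liver 6 of 7 did, 1 short of the rule, and 4 arrays correlated best with their own number, a hint from the data that the labels do not settle. In the 6 tumours of set B 0 of 17 relations passed, a count that so few arrays nearly fixed in advance. Leaving out each array gave 0 to 4 in Sav1 tumours (0 without Sav1 flox liver 3) and 0 to 4 in Sav1 surrounding liver against flox liver (0 without Sav1 flox liver 2, Sav1 flox liver 3 or surrounding liver 5). It gave 0 to 1 in Sav1 tumours against surrounding liver (1, Noct, without surrounding liver 1 or 2 or tumour 10), 1 to 2 in Mst1/2 tumours against flox liver, 0 to 2 in Sav1 against Mst1/2 surrounding liver (0 without Mst1/2 surrounding liver 1) and 0 to 1 among normal livers. The counts of all genes ranged from 75 to 6302 around 4660 in Sav1 tumours, from 0 to 2830 around 1482 in Sav1 surrounding liver, from 1817 to 4593 around 2851 in Mst1/2 tumours and from 182 to 4114 around 563 in Mst1/2 surrounding liver, each against flox liver. They ranged from 6 to 2253 around 1803 in Sav1 tumours against surrounding liver, from 0 to 91 around 11 in Mst1/2 tumours against surrounding liver, from 0 to 1916 around 532 between tumours and from 21 to 861 around 133 between surrounding livers. Among the line differences they were 4 to 20 around 12, 19 to 215 around 155 and 31 to 111 around 83, and among normal livers 204 to 955 around 742. No called difference changed sign. Apart from fewer samples where arrays were left out, the cause was not tested. Groups of 2 to 4 arrays limit what could be detected, and Per3 lies near background.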
